A study of Rattus norvegicus with 16 samples.

Results

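The diet by genotype interaction asks, for each gene, whether a methionine- and choline-deficient (MCD) diet moved its liver level differently in Tspo knockout rats and in wild-type rats. It was computed as the MCD minus chow change in the knockout minus the same change in the wild type, on the log2 scale, so a negative value means a more negative diet effect in the knockout. All 16 libraries of the series entered, 4 in each of 4 groups, and 11162 of the 17168 genes in the count table had enough counts to be tested. The groups were Sprague Dawley rats labelled wild type on chow (WT-CHOW), wild type on MCD diet (WT-MCD), tspo -/- on chow (KO-CHOW) and tspo -/- on MCD diet (KO-MCD). In every group the animals were fed normally up to 12 weeks of age, received their diet for 8 weeks and were sampled at 20 weeks. The labels do not say which part of Tspo is missing, how the line was made or whether each library is a separate animal, so the tests compare the effect with the spread among libraries.

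TSPO, the translocator protein, sits in the mitochondrial outer membrane and binds cholesterol and many drugs. The MCD diet withholds what the liver needs to make phosphatidylcholine and export triglyceride in lipoproteins, and it is used as a model of steatohepatitis. Lipogenesis turns citrate into fatty acids through ATP citrate lyase (Acly), acetyl-CoA carboxylase (Acaca) and fatty acid synthase (Fasn), and stearoyl-CoA desaturase (Scd1 in this table, Scd in current RefSeq) then introduces a double bond. The transcription factors SREBP-1c and ChREBP are known to drive these genes in the fed liver.

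Library totals ran from 8745744 to 15762651 counts after rounding, and levels are given in CPM (counts divided by TMM-scaled library totals), so every change is relative to the bulk of genes. The hepatocyte product Alb was abundant in every library, at 60920 to 167238 CPM. The libraries WT-CHOW 4, KO-CHOW 4 and KO-MCD 1 stood apart on the second principal component, which held 16.1% of the variance, and in an index of long minus short messages. Tspo itself lay at 4.42 CPM in KO-CHOW 4 and 4.17 CPM in KO-MCD 1. The other 6 libraries labelled knockout had 0.656 to 1.66 CPM. Wild-type levels were 3.61 to 5.23 CPM on chow and 7.63 to 9.33 CPM on MCD. KO-CHOW 4 thus lay within WT-CHOW, while KO-MCD 1 lay above the other KO-MCD libraries and below every WT-MCD library. The labels of these 2 libraries are thus in doubt, and each direction below that involves the knockout rests on groups that hold them. The Tspo difference of diet effects was -0.84 ± 0.66 (log2, SE; 95% interval -2.24 to 0.56), and the interval holds 0. In bulk tissue, fewer cells of a type and less RNA per cell cannot be told apart.

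No gene passed the interaction test. With edgeR's quasi-likelihood test and Benjamini-Hochberg adjustment, 0 of 11162 genes had an adjusted p under 0.05 (0%), and 330 had an unadjusted p under 0.05, 221 of them higher (1.98%) and 109 lower (0.977%). DESeq2 called 1 gene, limma voom called 0, and voom with sample quality weights called 5. For scale, edgeR called 2031 genes higher (18.2%) and 1778 lower (15.9%) on MCD in the wild type, and 2447 higher (21.9%) and 2067 lower (18.5%) in the knockout. The smallest adjusted p of the interaction was 0.852, for the uncharacterised LOC500124, whose difference was 1.30 ± 0.25. Its level was 8.37 to 13.4 CPM in WT-CHOW and 3.35 to 4.77 CPM in KO-CHOW, without overlap, 6.88 to 8.62 CPM in WT-MCD and 6.54 to 8.22 CPM in KO-MCD. Adjusted p-values of all other genes tested were above 0.999, so single genes are given below with the SE and 95% interval of edgeR's fit, which describe genes that missed the threshold.

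A gene that misses the threshold may still differ, and the 95% intervals show how far. The median SE of the difference was 0.358 and the median half-width of its interval 0.757 on the log2 scale. For 5448 genes (48.8%) the whole interval lay within 2-fold in either direction, so a larger difference of diet effects lay outside it. That share depended on the level. It was 1 of 664 genes with a mean under 1 CPM, 283 of 2261 at 1 to 5 CPM, 2091 of 3604 at 5 to 20 CPM, 2415 of 3508 at 20 to 100 CPM and 658 of 1125 at 100 CPM or more. At the other end, the point estimate was 2-fold or more for 452 genes (4.05%).

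Fatty acid synthesis was the gene list with the lowest median difference among the 29 lists with at least 10 tested members. Of its 22 members 0 were called and 18 had a negative difference, with a median of -0.48 against 0.018 over all genes tested. An unadjusted p under 0.05 with a lower value was found for 6 of 22, where 0.977% of all genes tested had one. These were Pnpla3, Scd1, Acly, Thrsp, Fasn and Acaca. In the higher direction 0 members had one. The lists were chosen with earlier results of these data known, so neither the rank nor the 6 of 22 is a test.

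Scd1 shows the pattern. Its level was 2195, 3081, 1173 and 1608 CPM in WT-CHOW libraries 1 to 4 and 5211, 3853, 6071 and 7784 CPM in KO-CHOW libraries 1 to 4. On MCD it was 194, 306, 335 and 89.1 CPM in WT-MCD and 153, 216, 132 and 125 CPM in KO-MCD. The 2 chow groups did not overlap, while the MCD ranges did. The gene fell on MCD in both genotypes, with log2 changes of -3.12 in wild type (adjusted p = 4.87e-05, edgeR) and -5.19 in knockout rats (adjusted p = 1.21e-06). The difference of these effects was -2.07 ± 0.53 (95% interval -3.19 to -0.95).

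Acly, which supplies cytosolic acetyl-CoA, had 543, 303, 356 and 258 CPM in WT-CHOW and 884, 946, 1118 and 526 CPM in KO-CHOW. Library KO-CHOW 4 was the lowest of its group and fell inside the wild-type range. The ranges were 252 to 510 CPM in WT-MCD and 207 to 423 CPM in KO-MCD. In the knockout Acly fell on MCD by 1.52 (adjusted p = 0.00135, edgeR), and in the wild type its diet change was 0.12 ± 0.30. The difference was -1.63 ± 0.43 (95% interval -2.54 to -0.73).

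Fasn, the enzyme that builds palmitate, stood at 519, 420, 337 and 283 CPM in WT-CHOW and at 830, 985, 873 and 565 CPM in KO-CHOW, without overlap. The MCD groups overlapped, with 252 to 468 CPM in WT-MCD and 105 to 390 CPM in KO-MCD. Its difference was -1.59 ± 0.47 (95% interval -2.59 to -0.58). Thrsp, a small protein that promotes lipogenesis, had 554 to 850 CPM in WT-CHOW and 932 to 1882 CPM in KO-CHOW, and 153 to 376 CPM in WT-MCD against 126 to 233 CPM in KO-MCD. Again the chow groups were apart and the MCD groups overlapped, and the difference was -1.44 ± 0.40 (95% interval -2.28 to -0.59).

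Pnpla3, a lipid droplet protein induced by feeding, had the lowest value of the list. It was listed at 104, 30.3, 60.4 and 21.0 CPM in WT-CHOW and at 505, 383, 563 and 50.1 CPM in KO-CHOW, so 3 knockout libraries were above every wild-type one and KO-CHOW 4 was not. WT-MCD had 2.55 to 13.3 CPM and KO-MCD 3.09 to 11.9 CPM. The difference was -3.15 ± 0.95 (95% interval -5.17 to -1.14). Acaca, which makes malonyl-CoA, differed by -1.07 ± 0.44, with the upper end of its 95% interval at -0.14. Here the wild type rose on MCD, from 29.4 ± 3.64 to 54.7 ± 2.92 CPM (SD, n = 4; adjusted p = 0.0371, edgeR), while the knockout had 49.8 ± 17.9 CPM on chow and 44.1 ± 19.6 CPM on MCD, its lowest libraries being KO-CHOW 4 and KO-MCD 1.

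**Figure D1:**
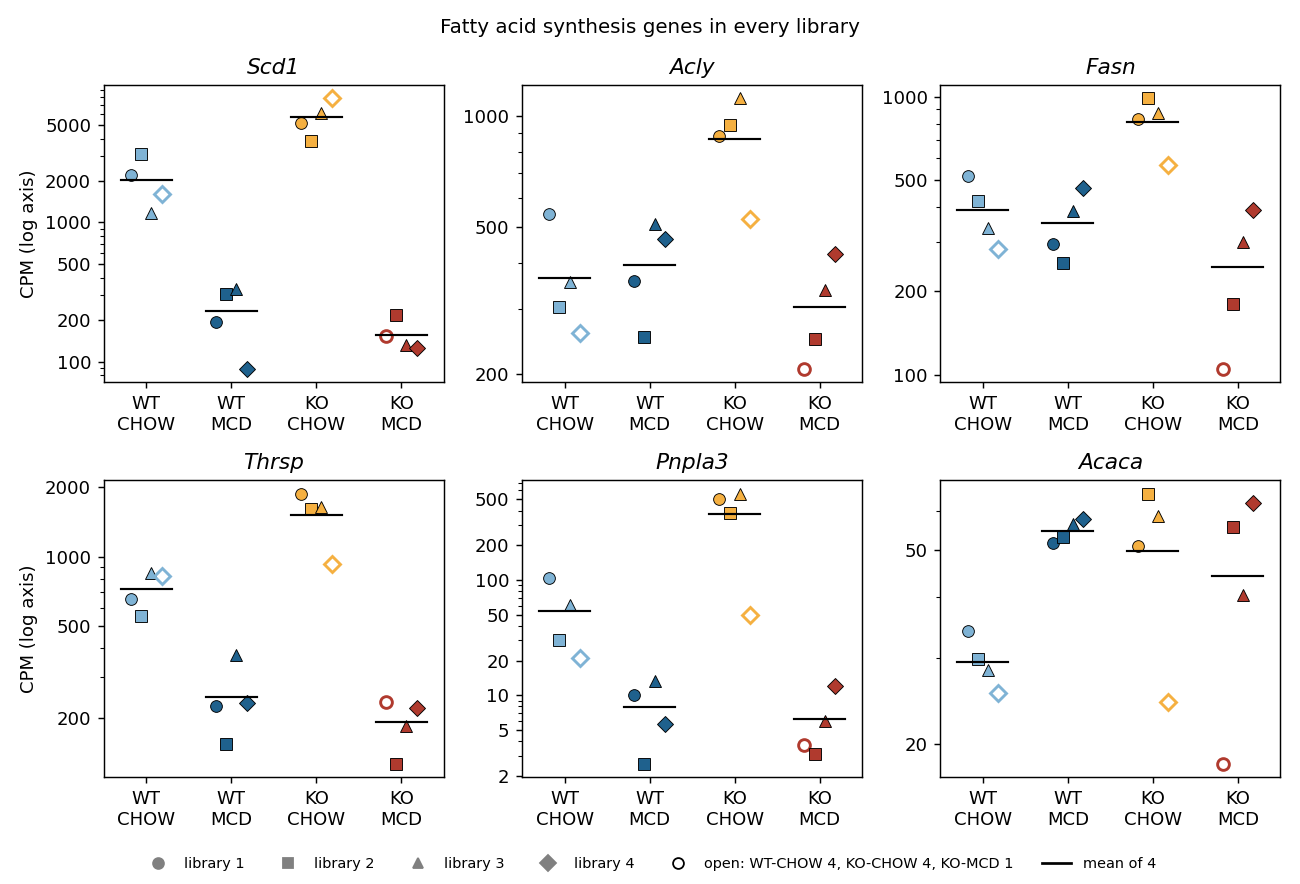
CPM on log axes in every library for Scd1, Acly, Fasn, Thrsp, Pnpla3 and Acaca, with symbols for the library number, bars for the mean of 4 and open symbols for WT-CHOW 4, KO-CHOW 4 and KO-MCD 1. The KO-CHOW libraries lie above WT-CHOW for Scd1, Fasn and Thrsp without overlap, and the 2 MCD groups overlap in all 6 panels.

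In 4 of the 22 list members every KO-CHOW library lay above every WT-CHOW library, as did 196 of all 11162 genes (1.76%). The fourth, beside Scd1, Fasn and Thrsp, was Me1, the malic enzyme that supplies NADPH, named here after its value was seen. Me1 had 52.9 to 99.8 CPM in WT-CHOW and 121 to 152 CPM in KO-CHOW, and its difference of diet effects was -0.75 ± 0.42 (95% interval -1.65 to 0.15). The highest member was Mlxipl, which encodes ChREBP, with a difference of 0.72 ± 0.59, also named after its value was seen. It was 1 of 4 members with a positive difference. At this SE its sign is not settled, so no statement about the drivers of lipogenesis rests on it.

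Promoter sequence is shown for Scd1, Acly, Thrsp and Pnpla3, the members with an unadjusted p under 0.05 that were matched in the RefSeq promoter table (GRCr8); 16 of the 22 list members were matched. Each run gives the 250 bases before the annotated start, 5′ to 3′ on the gene's strand, with capitals for CCAAT or its reverse complement ATTGG. They lie at chr1:253231732-253231981 (minus strand), chr10:85963632-85963881 (minus strand), chr1:161138965-161139214 (minus strand) and chr7:117173278-117173527 (plus strand).
Scd1: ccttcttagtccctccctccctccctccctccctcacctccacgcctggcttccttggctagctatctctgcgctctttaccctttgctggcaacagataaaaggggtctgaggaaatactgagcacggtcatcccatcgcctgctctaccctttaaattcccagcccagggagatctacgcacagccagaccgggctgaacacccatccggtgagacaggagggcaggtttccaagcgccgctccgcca
Acly: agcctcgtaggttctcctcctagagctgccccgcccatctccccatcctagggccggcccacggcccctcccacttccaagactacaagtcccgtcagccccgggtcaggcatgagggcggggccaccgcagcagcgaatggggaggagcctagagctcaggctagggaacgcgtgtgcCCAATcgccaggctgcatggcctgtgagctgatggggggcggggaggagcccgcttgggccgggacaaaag
Thrsp: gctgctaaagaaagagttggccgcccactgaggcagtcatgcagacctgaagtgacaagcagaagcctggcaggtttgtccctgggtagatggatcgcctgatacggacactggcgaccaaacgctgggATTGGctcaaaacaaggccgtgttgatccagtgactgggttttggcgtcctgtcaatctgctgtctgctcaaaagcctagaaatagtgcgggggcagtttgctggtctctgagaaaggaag
Pnpla3: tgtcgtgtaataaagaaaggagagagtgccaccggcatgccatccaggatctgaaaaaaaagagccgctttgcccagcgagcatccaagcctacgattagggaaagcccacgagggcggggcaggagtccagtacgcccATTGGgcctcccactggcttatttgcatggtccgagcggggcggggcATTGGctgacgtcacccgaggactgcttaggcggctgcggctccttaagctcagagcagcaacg
The Scd1 window holds no CCAAT on either strand and so has no capitals. On either strand CCAAT stood in 12 of the 16 matched windows, against 34.0% of all 33469 windows of this length. CACGTG, the letters of an E-box, stood in 1 of the 16 against 5.59%, and TCACCCCAC, a form of the sterol response element, in 0 against 0.409%. Neither occurs in the runs shown. These matches describe the windows only; they are not sites or causes.

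Cholesterol synthesis and uptake genes, which SREBP-2 is known to drive, had negative differences in 23 of 24 members, with a median of -0.43. Of the 24 members 1 had an unadjusted p under 0.05. This was Tm7sf2, a sterol reductase, with -1.11 ± 0.48 (95% interval -2.13 to -0.09), 83.3 ± 23.2 CPM in WT-CHOW, 133 ± 27.5 in KO-CHOW, 39.9 ± 17.8 in WT-MCD and 29.4 ± 13.1 in KO-MCD (SD, n = 4). Fdps and Cyp51, also enzymes of the pathway, had -0.80 ± 0.49 and -0.78 ± 0.47. The median knockout minus wild type of the 24 members was 0.15 on chow and -0.27 on MCD, with 0 and 1 of them at an unadjusted p under 0.05. The list's median of -0.43 depended on single libraries. It was -0.75 without KO-MCD 4 and -0.68 without WT-MCD 2, each with 5 members at an unadjusted p under 0.05, and -0.28 without WT-MCD 4, with 0. The diet called 8 of the 24 members higher and 2 lower in wild-type rats, and 2 higher and 4 lower in knockout rats. Over all genes tested the shares were 18.2% higher and 15.9% lower in the wild type, and 21.9% and 18.5% in the knockout. Whether a member's diet effect differs between genotypes is what the interaction tests, and it called 0.

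Across the 34 lists of pathways and cell types 0 members were called and 15 lists had a member with an unadjusted p under 0.05. Medians of the 29 larger lists ran from -0.48 for fatty acid synthesis to 0.33 for sinusoidal endothelium. In the endoplasmic reticulum and integrated stress list 19 of 22 members were negative (median -0.30), and in the NRF2 and glutathione list 15 of 20 (median -0.33), with 0 members of either at an unadjusted p under 0.05. Partners of TSPO and steroid handling genes had a median of -0.14 (12 of 19 negative). Oxidative phosphorylation genes had a median of -0.12, and cytosolic ribosomal protein genes one of 0.15 with 21 of 27 positive. In macrophage markers the median was 0.046.

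**Figure D2:**
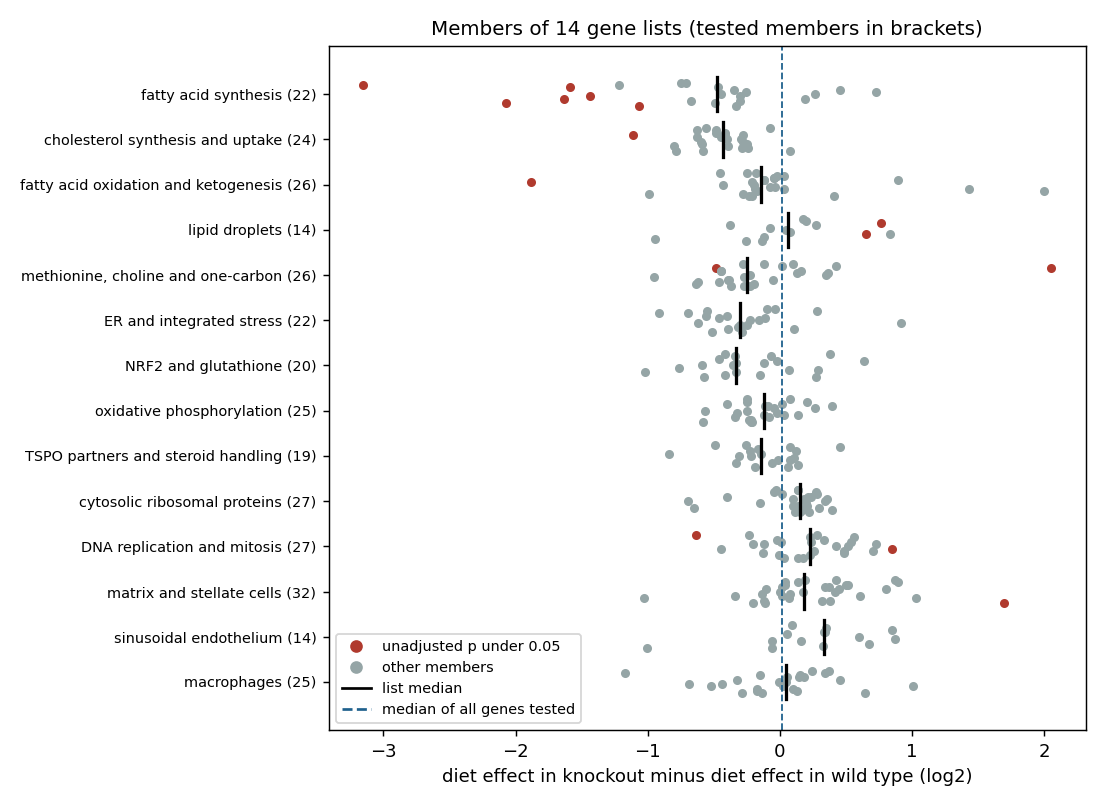
Difference of diet effects (log2) for every tested member of 14 gene lists, with the list median as a black bar and the median of all genes tested as a dashed line. Fatty acid synthesis has 6 members with an unadjusted p under 0.05, all negative, and 23 of 24 cholesterol synthesis and uptake members lie below 0.

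The lipases Pnpla2 and Lipe had differences of the opposite sign. Pnpla2, the adipose triglyceride lipase, had 49.8, 37.6, 34.2 and 40.6 CPM in WT-CHOW and 27.7, 30.5, 24.7 and 22.8 CPM in KO-CHOW, without overlap. It rose to 72.9 ± 5.01 CPM in WT-MCD and 74.7 ± 7.99 CPM in KO-MCD, by 0.84 (adjusted p = 0.000550, edgeR) and 1.50 (adjusted p = 6.04e-06), so both genotypes reached like levels from different starts. The difference was 0.66 ± 0.21 (95% interval 0.22 to 1.09). Lipe, the hormone-sensitive lipase, had 0.77 ± 0.35 (95% interval 0.03 to 1.51). These were the 2 of 14 tested lipid droplet genes with an unadjusted p under 0.05 in the higher direction, where 1.98% of all genes had one. Fatty acid oxidation genes had a median of -0.15, and the lowest of the 26 was Fgf21, a hormone of the fasting liver, at -1.88 ± 0.74 (95% interval -3.46 to -0.31), with 1.52 to 10.5 CPM in WT-CHOW, 7.44 to 20.1 in WT-MCD, 2.41 to 15.0 in KO-CHOW and 3.92 to 9.27 in KO-MCD.

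The 20 genes with the smallest p, 10 per direction among genes with at least 5 CPM in a group, included 5 of the lipogenic genes above. Highest in the list was Col27a1, a fibrillar collagen chain, at 2.12 ± 0.49 (95% interval 1.08 to 3.17). It had 29.0, 20.5, 50.7 and 13.4 CPM in WT-CHOW, against 4.95 to 9.64 CPM in KO-CHOW, 3.34 to 6.66 in WT-MCD and 4.10 to 7.16 in KO-MCD. The wild type on chow alone was high, and no library of another group reached its range. Epb41l1, a membrane skeleton protein, had 10.3 to 18.1 CPM in WT-CHOW and 6.59 to 8.71 CPM in KO-CHOW, and rose on MCD to 28.6 ± 1.85 and 31.4 ± 5.59 CPM, with a difference of 1.04 ± 0.25 (95% interval 0.51 to 1.58). The other 7 positive genes beside Pnpla2, which were Zfp414, Pcgf2 (a Polycomb ring finger protein), Ccdc77, Sepw1 (a selenoprotein), Fam175a (a partner of BRCA1), Wwtr1 (the Hippo pathway coactivator TAZ) and Zfp295, had differences of 0.78 to 1.71.

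In the negative direction Tmem55a, a phosphoinositide phosphatase, had 4.54, 5.76, 5.78 and 3.90 CPM in WT-CHOW and 19.4, 11.0, 19.9 and 7.90 CPM in KO-CHOW. It was 10.2 to 13.6 CPM in WT-MCD and 8.24 to 18.8 CPM in KO-MCD, so the wild type on chow was the group apart, and the difference was -1.56 ± 0.42 (95% interval -2.45 to -0.67). Psmb8, a subunit of the immunoproteasome, had 72.9 ± 9.92 CPM in WT-CHOW and 125 ± 9.44 CPM in KO-CHOW, then 47.4 ± 16.3 and 40.4 ± 7.93 CPM on MCD (SD, n = 4), and differed by -1.01 ± 0.30 (95% interval -1.64 to -0.38). Klhl25, an adaptor of a ubiquitin ligase, had -0.88 ± 0.28, Vps13b, a lipid transfer protein, -0.65 ± 0.21, and Gss, the glutathione synthetase, -0.52 ± 0.17.

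**Figure D3:**
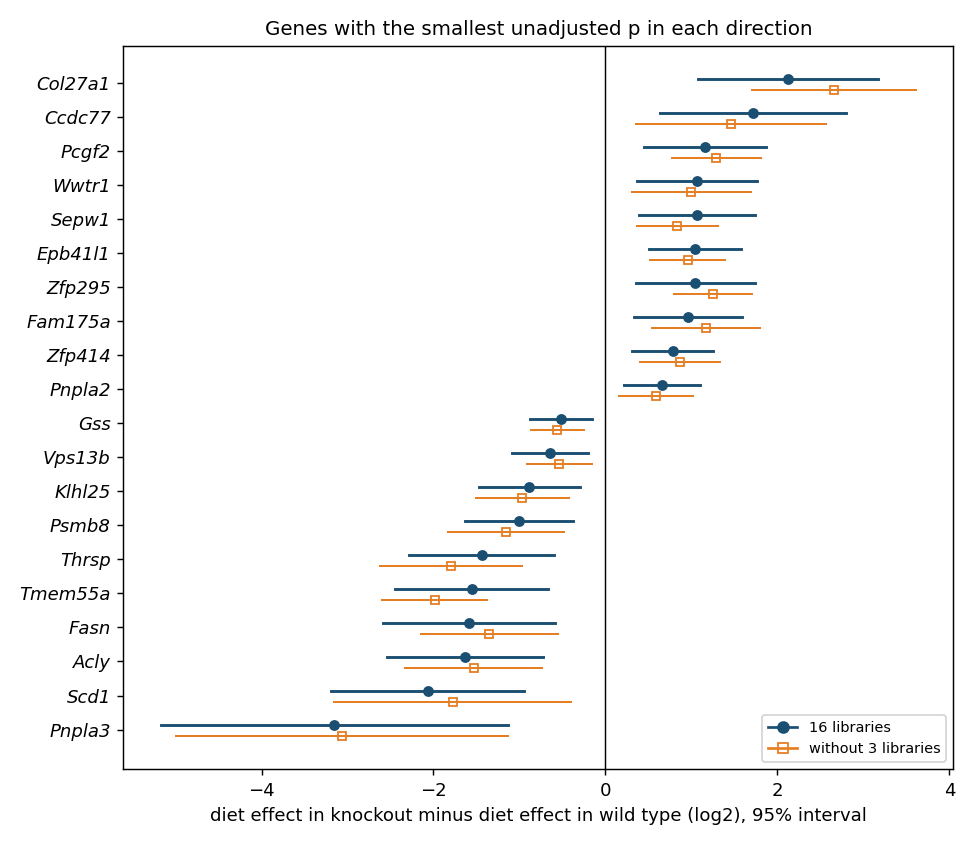
Difference of diet effects (log2) with 95% intervals for the 20 genes with the smallest unadjusted p, over all 16 libraries (filled circles) and without WT-CHOW 4, KO-CHOW 4 and KO-MCD 1 (open squares). Pnpla3 has the widest intervals, and every gene keeps its sign without the 3 libraries.

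For these genes the difference lay on chow. In 20 of 20 the knockout minus wild type value was larger in size on chow than on MCD, with medians of 1.00 and 0.203 on the absolute log2 scale. The genes were chosen on the difference of the 2 values, so this describes where it lay and is no test. Over all 11162 genes the chow value was the larger for 8137 (72.9%), with medians of 0.255 and 0.121. The median SE was 0.257 on chow and 0.248 on MCD, but both come from 1 fit with 1 spread estimate per gene. These SEs therefore cannot show whether the libraries spread alike on both diets. An unadjusted p under 0.05 for the genotype was found for 1152 genes on chow and 81 on MCD. After adjustment edgeR called 1 gene on chow and 0 on MCD. Without WT-CHOW 4, KO-CHOW 4 and KO-MCD 1 it called 203 genes higher (1.81%) and 313 lower (2.79%) in the knockout on chow, and 0 higher and 1 lower on MCD. These genotype contrasts share their libraries with the interaction.

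**Figure D4:**
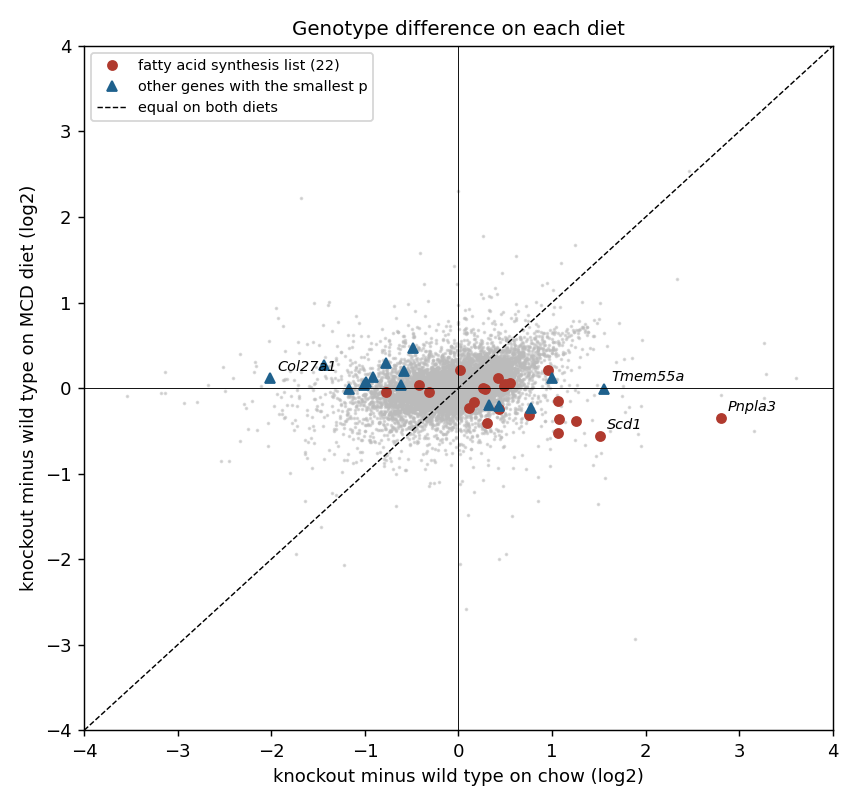
Knockout minus wild type (log2) on MCD against the same on chow for 11162 genes (grey), the 22 fatty acid synthesis genes (red) and the other genes with the smallest p (blue); 8 genes lie outside the axes. Points spread more along the chow axis than along the MCD axis, and Scd1 and Pnpla3 lie far to the right near or below 0 on MCD.

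Other named list members are given by their values, and not all had the larger genotype difference on chow. Phgdh, the first enzyme of serine synthesis, had 0.381 to 6.86 CPM in WT-CHOW and 0.134 to 1.53 CPM in KO-CHOW, and rose on MCD to 29.5 ± 5.01 and 26.5 ± 5.76 CPM (adjusted p = 0.000462 and 2.00e-05, edgeR). Its difference was 2.05 ± 0.74 (95% interval 0.49 to 3.62), and the chow values rest on few counts. Sgk1, a kinase induced by glucocorticoids, had 29.5 to 43.1 CPM in WT-CHOW and 6.89 to 21.7 CPM in KO-CHOW, without overlap, 20.9 to 28.5 CPM in WT-MCD and 11.8 to 57.9 CPM in KO-MCD, with a difference of 1.66 ± 0.54 (95% interval 0.52 to 2.80). Gadd45g, a growth arrest gene, had 6.85 to 152 CPM in WT-CHOW, the widest range of the 4 groups, and a difference of 2.52 ± 0.96 (95% interval 0.50 to 4.55).

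Acta2, a smooth muscle actin that activated stellate cells make, had 6.95, 3.81, 7.08 and 5.71 CPM in WT-CHOW and 3.18, 0.656, 1.68 and 1.21 CPM in KO-CHOW, without overlap. It had 4.62 to 11.6 CPM in WT-MCD and 2.43 to 9.72 CPM in KO-MCD, and its difference was 1.70 ± 0.63 (95% interval 0.37 to 3.03), the only one of 32 matrix and stellate cell genes with an unadjusted p under 0.05. The list had a median of 0.18 and 25 of 32 positive members. Summed over all 34 genes of the list in the table, its level was 1997 to 3044 CPM in WT-CHOW, 1894 to 2717 in KO-CHOW, 2925 to 4730 in WT-MCD and 2093 to 3849 in KO-MCD, and its part in the Acta2 value was not tested.

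Sex-biased and growth hormone genes gave large estimates with wide intervals. Cyp2c12, a female-biased cytochrome P450, had 372 to 478 CPM in WT-CHOW and 504 to 1223 CPM in KO-CHOW and fell on MCD to 98.4 ± 31.4 and 96.0 ± 74.2 CPM, with a difference of -1.20 ± 0.57 (95% interval -2.40 to -0.00). Cyp3a2, a male-biased one, was unlike Cyp2c12, since its groups were nearer on chow (944 ± 576 and 710 ± 424 CPM) than on MCD (119 ± 81.4 and 355 ± 123 CPM). The Cyp3a2 difference was 1.99 ± 0.80 (95% interval 0.29 to 3.69). Cish, a target of growth hormone signalling, had 0.190 to 48.4 CPM in WT-CHOW and 0.718 to 33.1 CPM in KO-MCD. A spread of that size within groups left its difference of 3.91 with an interval of 0.59 to 7.23. The estrogen sulfotransferase Sult1e1 had 235 to 1647 CPM over the chow libraries, 19.4 CPM in WT-MCD 1, at most 0.0552 CPM in KO-MCD and 0 in the other 3 WT-MCD libraries, so 1 library carried its MCD difference and no fold is given.

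Clock genes that oscillate with feeding time were also spread within groups. Dbp, a clock output factor, had 148, 102, 57.5 and 3.48 CPM in KO-CHOW and 23.1, 37.1, 41.5 and 3.81 CPM in WT-CHOW. In both groups library 4 was the lowest, and the difference was -2.62 ± 1.18 (95% interval -5.13 to -0.11). Usp2, a clock-controlled deubiquitinase, had -0.91 ± 0.34 (95% interval -1.64 to -0.18). Among 27 replication and mitosis genes, which the diet called higher for 24 in each genotype, Tyms and Kif11 had differences of opposite sign, -0.64 ± 0.23 (95% interval -1.13 to -0.14) and 0.85 ± 0.33 (95% interval 0.15 to 1.55).

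The count of calls changed when the 3 libraries that stood apart were left out. Among 11220 genes then tested edgeR called 20, of which 18 were higher (0.16%) and 2 lower (0.0178%). The median SE was 0.264 in place of 0.358, and 1956 genes had an unadjusted p under 0.05. Top3b and Zfp61 alone had an adjusted p under 0.01 (0.00486 for both). Of the 20 genes 19 were also tested with all libraries. All 19 had the same sign there, and 13 had an unadjusted p under 0.05 (edgeR), as did 2.96% of all genes tested. Both fits share all libraries but the 3, so this overlap is no test. All 18 higher genes had lower values in the knockout than in the wild type on chow in this fit. The difference of diet effects is the genotype value on MCD minus that on chow. The sign on chow thus largely follows from how the genes were chosen and is no test.

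Top3b, a topoisomerase, had 42.1, 38.1, 40.9 and 14.9 CPM in WT-CHOW libraries 1 to 4 and 16.9, 17.5, 14.8 and 14.6 CPM in KO-CHOW libraries 1 to 4. Without the 3 libraries its difference was 1.27 ± 0.16, and with them it was 0.87 ± 0.39. The library WT-CHOW 4 was left out of the fit that chose the gene. It carried a wild-type label and a Tspo level of 5.23 CPM, and stood at the level of the knockout on chow. WT-MCD had 16.1 to 20.2 CPM and KO-MCD 8.97 to 18.3 CPM, so WT-CHOW libraries 1 to 3 were above all others. Zfp61, a zinc finger gene, was alike, with 13.0, 12.3, 14.9 and 4.76 CPM in WT-CHOW and 4.55 to 5.91 CPM in KO-CHOW, and had 1.67 ± 0.21 without the 3 libraries.

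Akr1c2, an aldo-keto reductase, had the lowest value of the 20 genes. Its level was 24.5, 23.0, 21.7 and 658 CPM in WT-CHOW, 174, 478, 419 and 744 CPM in KO-CHOW, 52.3 to 120 CPM in WT-MCD and 91.9 to 330 CPM in KO-MCD. Its difference was -3.62 ± 0.51 without the 3 libraries (adjusted p = 0.0314, edgeR) and -0.31 ± 1.27 with them. In 18 of these 20 genes the left-out WT-CHOW 4 was nearer the KO-CHOW mean than the WT-CHOW mean, each over libraries 1 to 3. The scale was log2 CPM, and the same held for 67.3% of all 11220 genes. WT-CHOW 4 was also nearer the WT-MCD mean than the WT-CHOW mean in 17 of the 20, and in 40.8% of all genes. The left-out KO-CHOW 4 was nearer the WT-CHOW mean in 2 of the 20, and in 34.6% of all genes. The left-out KO-MCD 1 was nearer the mean of WT-MCD than that of the other KO-MCD libraries in 18 of the 20, and in 59.8% of all genes. Nearer does not mean within the range of WT-MCD. Mbd6 had 18.9 CPM in KO-MCD 1, below WT-MCD (41.9 to 57.8 CPM) and the other KO-MCD libraries (42.7 to 62.4 CPM). Zfp384, at 21.6 CPM, lay within WT-MCD (20.9 to 24.4 CPM). The 20 genes were chosen in a fit where WT-CHOW libraries 1 to 3 alone stood for their group. A left-out library may for that reason lie nearer other groups, so these counts are no test. The other members called include Zfp384, Mbd6 (a methyl-CpG binding domain protein), Lamb2 (a laminin chain), Camta2, Sh3bp1 and Scarf1 (a scavenger receptor), at 0.90 to 1.24, and Tmem55a at -1.99 (adjusted p = 0.017).

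**Figure D5:**
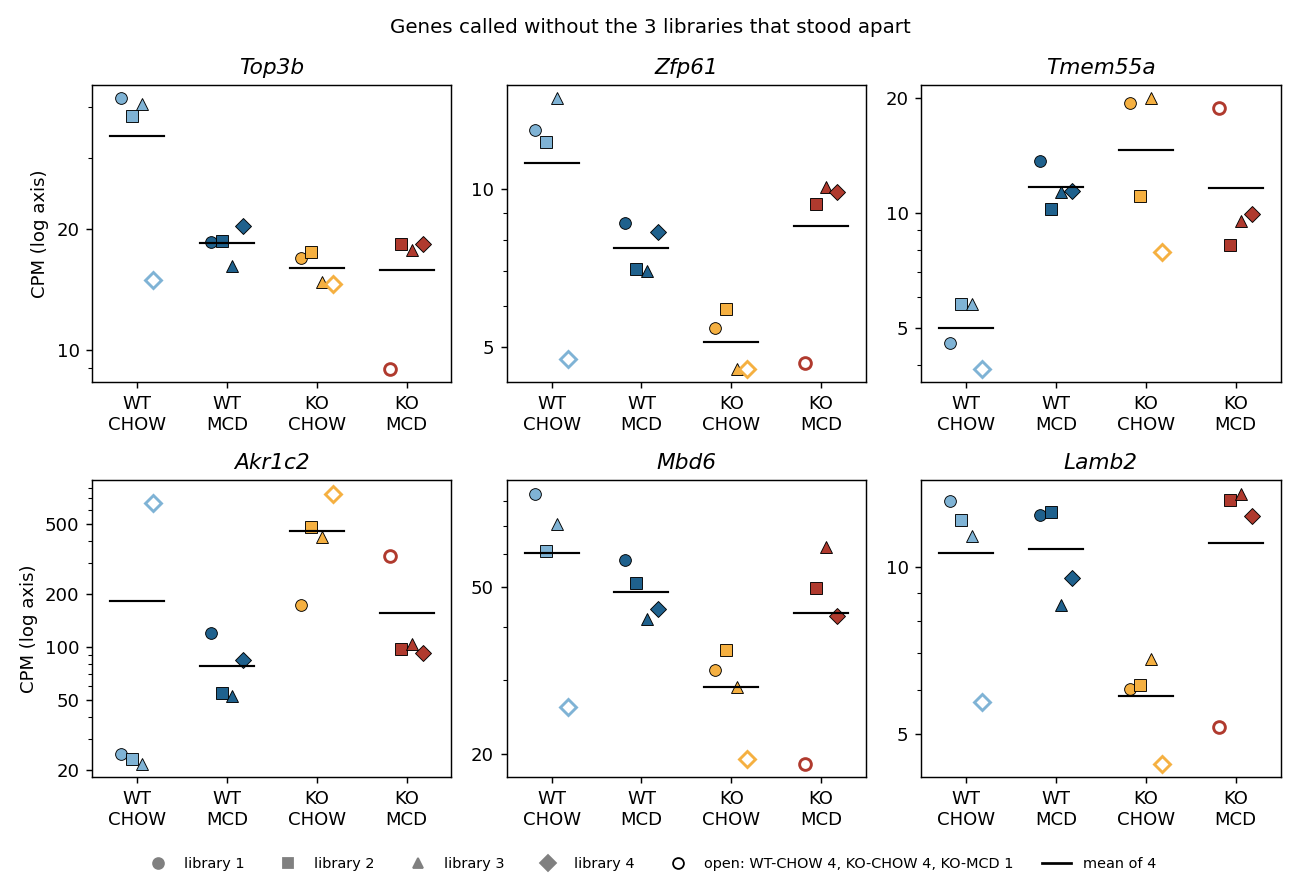
CPM on log axes in every library for 6 of the 20 genes called without WT-CHOW 4, KO-CHOW 4 and KO-MCD 1, which are drawn as open symbols; bars are means of 4. For Top3b, Zfp61, Akr1c2, Mbd6 and Lamb2 the open WT-CHOW symbol lies with the KO-CHOW libraries, and for Tmem55a it lies with WT-CHOW.

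The 20 calls also depended on the other libraries and on the test. Leaving out 1 more library gave 2 to 147 calls, with the highest count without WT-CHOW 2. With the message length index as a covariate 2 genes were called, limma voom called 2 and DESeq2 341. The 6 lipogenic genes kept their direction without the 3 libraries, with -1.78 for Scd1, -1.53 for Acly, -1.35 for Fasn, -1.79 for Thrsp, -3.06 for Pnpla3 and -0.97 for Acaca, and edgeR called 0 of them, with adjusted p-values of 0.0587 to 0.188. In the same libraries DESeq2 called 5 of the 6, all but Scd1 (adjusted p = 0.0831). Its adjusted p-values for the 5 were 0.00108 for Thrsp to 0.0292 for Pnpla3. Of all genes to which DESeq2 gave an adjusted p it called 1.9% lower. The 6 genes were chosen by their p in the fit of all 16 libraries, which holds these same libraries, so the count is no test. With 1 more library left out, edgeR called Acly (adjusted p = 0.0488) and Thrsp (0.0416) without WT-MCD 2 and Acaca (0.0456) without WT-CHOW 2.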

How the data were processed

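Poly(A) RNA of rat liver was sequenced after stranded library preparation, per the labels' protocols; the organism label is rat, although the series title speaks of mice. The authors deposited expected counts per gene from RSEM, and build rn6, Bowtie2 2.1.0 and RSEM 1.2.15 are listed in the submitters' processing notes, which assign them no step. Neither annotation nor strand setting is given. RSEM shares reads among near copies, so single values of the Scd, Cyp2c, Cyp3a, Sult and Akr1c families are uncertain. A second deposited table of normalised values was not used.

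Rounded counts were fitted with edgeR 4.0.16 under R 4.3.3: filterByExpr over 4 groups, TMM, 1 term per group, robust quasi-likelihood tests with 12 residual degrees of freedom and Benjamini-Hochberg adjustment over all genes tested. The SE is the absolute log2 value over the square root of F, and log2 CPM has a prior count of 2. Alternatives used limma 3.58.1 and DESeq2 1.42.0. Named genes are Tspo, the 10 per direction with the smallest p, up to 3 per list and up to 10 per direction called without the 3 libraries that stood apart; not all are described. Acaca, Me1, Mlxipl, LOC500124 and Socs2 were named after their values were seen. The members and lists were chosen with earlier results of these data known. Chi-square values per gene of 15.3 to 383.9 parted the libraries of each group, so none repeats the sequencing of another. They do not show whether each library is a separate animal. The script was tested on simulated data.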

Additional observations from a re-analysis of the deposited data

Results flagged for a closer look

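A value was marked when 1 library lay far from the other 3 of its group. Chance alone marks about 1 in 20 groups, and 16 of the 211 groups looked at were marked, 13 of them for a library that stood apart in the report. Some marked genes, such as Top3b, Zfp61 and Akr1c2, were named because they were called with those libraries left out. The count of 13 is therefore no test of whether those libraries stand apart. KO-MCD 1 was marked for Tmem55a (18.8 CPM), Sepw1 (30.5 CPM), Top3b (8.97 CPM), Zfp61 (4.66 CPM), Lamb2 (5.15 CPM), Camta2 (21.1 CPM) and Akr1c2 (330 CPM). KO-CHOW 4 was marked for Tspo (4.42 CPM), for the cholesterol synthesis gene Fdps (284 CPM) and for the index of long minus short messages (-1.24 on the log2 scale). WT-CHOW 4 was marked for Pcgf2 (3.90 CPM), Top3b (14.9 CPM) and Akr1c2 (658 CPM). Among the other libraries, WT-MCD 1 was marked for Sult1e1 (19.4 CPM), WT-MCD 2 for Fdps (180 CPM) and WT-MCD 4 for Socs2 (4.76 CPM), a target of growth hormone signalling. The part of RNA quality or of mixed labels in these values was not tested.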

How the results depend on the processing

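With all 16 libraries, counts of 0 higher and 0 lower genes were also given by DESeq2's size factors, upper quartile factors, library totals alone, no filter, a filter of at least 50 counts in 4 libraries, limma voom, the index covariate and each omission of 1 library. DESeq2 called 1 higher gene (LOC500124), and voom with quality weights 3 higher (Col27a1, LOC500124, Zfp61) and 2 lower (Thrsp, Tmem55a). Leaving out the 3 libraries gave 18 higher and 2 lower, leaving out the 2 knockout libraries with high Tspo 1 lower (Tmem55a), and leaving out all libraries of number 4 gave 1 higher (Socs2, 3.09, adjusted p = 0.0165 by edgeR). The cause was not tested. Genes with an interval within 2-fold numbered 4674 to 6525 under the alternatives. Library totals alone moved the median difference from 0.018 to 0.21. The median of the fatty acid and cholesterol lists was then -0.26 and -0.25, and without all libraries of number 4 it was -0.86 and -0.68.

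The replicate block, with the number of the library as a term, gave 0 calls and 5454 genes within 2-fold. Same-numbered libraries deviated together (r over 0.1) in 7 of 24 pairs, with r from -0.38 to 0.51. For number 4 it ran from -0.32 (KO-CHOW with KO-MCD) to 0.51 (WT-CHOW with KO-CHOW). No label says what the number marks, and whether some libraries of a number share more than it was not tested. No crossed pairing was tried.

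From the fit without the 3 libraries, DESeq2 called 165 higher and 176 lower, voom 2 and 0, and the index covariate 2 and 0. Leaving out a further library gave 2 to 68 higher and 0 to 79 lower. The highest counts came without WT-CHOW 2 (68 and 79) and without WT-MCD 2 (36 and 15), and without KO-MCD 4 they were 6 and 1, without WT-CHOW 3 they were 3 and 1, without KO-MCD 2 3 and 1, and without each of the others 2 higher and 0 to 3 lower. These were added after the data were seen.

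For the 52 genes named, 1481 of 1508 values kept their direction and their side of the threshold. Akr1c2 changed sign to 0.067, 0.055 and 0.056 without WT-CHOW 1, 2 or 3 and to 0.033 without KO-CHOW 4, and Sult1e1 to 1.05 without WT-MCD 1, the library that held its counts. Over the omissions of 1 library they ran from -3.29 to 0.067 and from -9.20 to 1.05, the latter fitted to counts near 0. At under 5 CPM the depth limits what can be said, since few intervals there lay within 2-fold.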
